A study of Homo sapiens with 6 samples.

Results

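Homologous recombination repairs double-strand DNA breaks by copying an intact sister chromatid, and the Fanconi anaemia pathway unhooks strands that a crosslink has joined and hands the resulting break to recombination. In recombination the ends are resected to single strands, BRCA1 and PALB2 bring BRCA2 to them so that strand exchange can begin, and nucleases and helicases resolve the joint molecules. Recombination is known for its use in S and G2 phase, when a sister chromatid is present. Inherited mutations in some genes of these pathways raise the risk of pancreatic cancer. The set described here holds 40 genes, chosen by name for their place in this pathway, and all 40 were found by symbol among the 16617 genes of the authors' deposited table.

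The cells were T3M4, an established human pancreatic ductal adenocarcinoma line. RNA sequencing covered 6 libraries in 2 groups. The sgControl group, also labelled WT, had 3 libraries from cells given a control guide RNA, and the sgMETTL13 group, also labelled KD, had 3 libraries from cells given a guide RNA against METTL13, the methyltransferase that modifies the translation elongation factor eEF1A. Neither whether each group was 1 clone or a pool nor whether its libraries came from separate cultures is stated in the labels, so every p-value here measures the spread between these libraries, which may be technical. The values are the authors' group averages and the authors' own comparison, with no value per library, so each group has 1 mean per gene and no SD. A log2 ratio below 0 means less transcript in sgMETTL13, and a gene is called where the authors' adjusted p is under 0.05. The 95% intervals were computed here from each deposited log2 ratio and its p-value, under a normal test. They repeat the spread the authors estimated and hold no further information.

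METTL13 itself was at 39.9 mean TPM (a transcript level scaled by length and depth) in sgControl and 5.63 in sgMETTL13 (authors' deposited table), a log2 ratio of -2.78. Mean estimated reads summed to 15.24 M in sgControl and 15.25 M in sgMETTL13. All 10 pancreatic ductal carcinoma markers were present, from 53.7 to 2107 mean TPM in sgControl in the authors' deposited table, with MUC1 called lower (log2 ratio -0.46) and S100A2 called higher (0.40). Of 16 markers of other cell types the 11 listed summed to 58.7 mean TPM in sgControl and 62.6 in sgMETTL13, PTPRC, CD3E, COL3A1, INS and GCG were not listed, and 3 exceeded 1 mean TPM in sgControl. Those 3 were CD68, a macrophage marker also made by epithelial cells (40.9 mean TPM in sgControl, 44.1 in sgMETTL13), COL1A1 (14.0 and 14.2) and PECAM1 (1.68 and 1.18), and none was called in the authors' deposited table.

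The recombination and crosslink repair transcripts were mostly a little lower in sgMETTL13, and 1 of the 40 passed the test. Of the 40 genes, 35 had a log2 ratio below 0, or 87.5%, against 49.8% of all 16617 genes (authors' deposited table). The median over the 40 was -0.17 (quartiles -0.25 and -0.03), a level of 0.890 of control, while the median of all genes was 0.00. CLSPN was called lower, which is 2.50% of the members against 1.08% of all genes, so the share of calls does not set the list apart. No member was called higher, against 2.73% of all genes. The implied interval lay wholly below 0 for 7 of the 40 (17.5%) and wholly above 0 for none. Across all genes the same was true of 4.80% below and 7.65% above. All 40 members were tested, with 26 at or above the median read count of the table and 14 below it. Genes within the members' own range of mean reads gave 51.0% below 0 and a median of 0.00, and 6.70% of them had intervals wholly below 0. These counts describe the list, and no test over the list was made. The share of cells in S phase was not measured, so fewer cycling cells and less RNA per cell cannot be told apart.

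**Figure D1:**
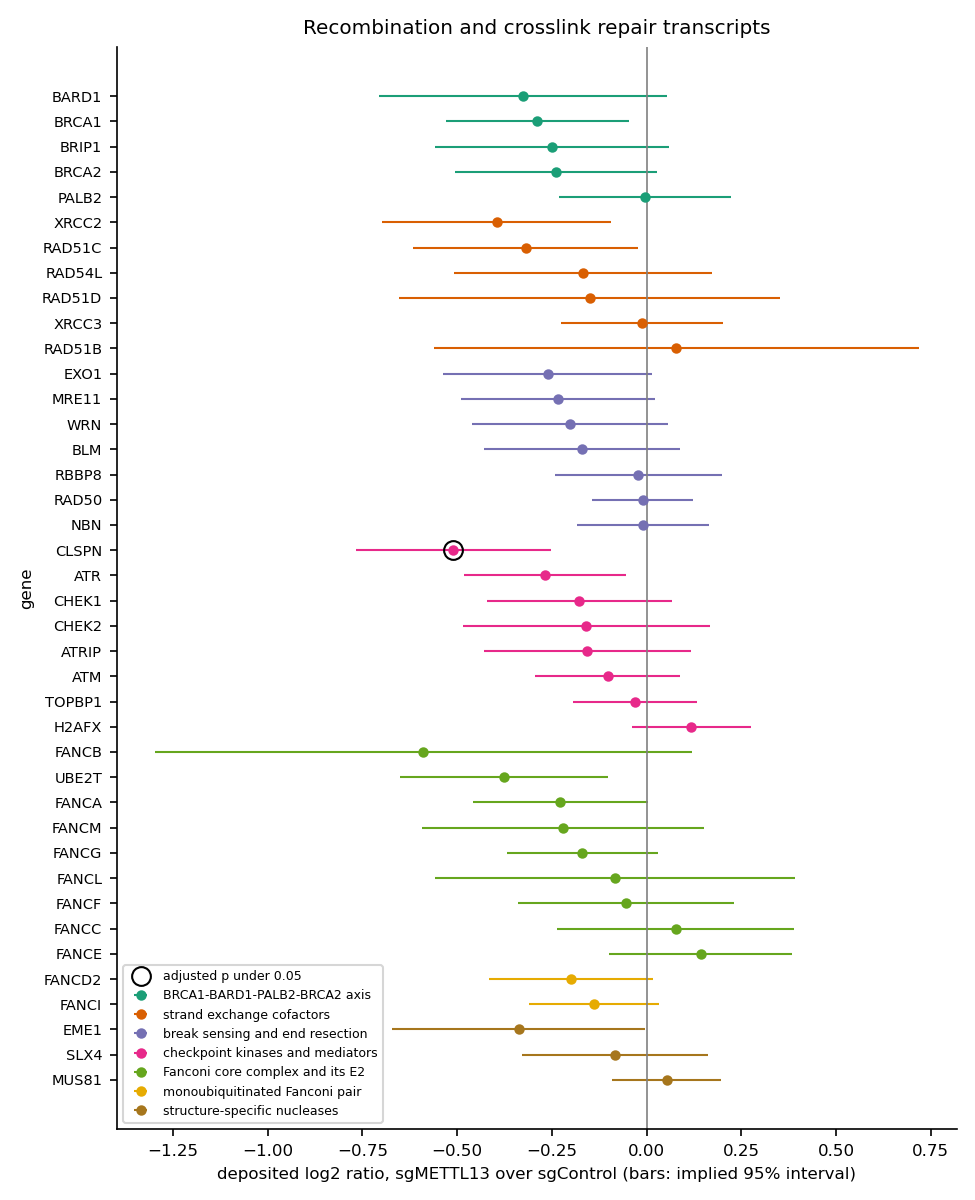
Deposited log2 ratio of sgMETTL13 over sgControl for each of the 40 genes (points) with the implied 95% interval (bars), coloured by role, and the called gene ringed. Of the points 35 lie left of 0, and CLSPN at -0.51 is the one ringed.

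CLSPN encodes claspin, the adaptor that holds CHEK1 at a stalled fork so that ATR can activate it. Its mean TPM was 7.38 in sgControl and 4.82 in sgMETTL13 (authors' deposited table). Mean estimated reads were 306 and 208. The deposited log2 ratio was -0.51 (implied 95% interval from -0.77 to -0.25), with an adjusted p of 0.0047 in the authors' deposited comparison. This is a fall to 0.702 of the control level. By GENCODE 29 the gene spans chr1:35720218-35769967 (GRCh38, minus strand). Its averages over 3 libraries do not come from whole reads, as where some reads are split with another gene or copy, and their part in the fall was not tested. CLSPN is 1 of 9 members with such averages, and BRCA1 and XRCC2 are among the others. Exon bases are shared with another gene of the table by 13 members. Among these are ATRIP (27.9% of its exon bases), RAD54L (25.1%), FANCA (23.6%) and EME1 (16.4%). The 150 bases before its RefSeq start (chr1:35769979-35770128, minus strand, GRCh38.p14) are shown because it is the called member, beside those of UBE2T (chr1:202341937-202342086, minus strand), the member with the next smallest p. Both read 5′ to 3′ on the gene's strand, and capitals mark CCAAT boxes, the letters CCAAT or their complement ATTGG, which NF-Y is known to bind in promoters of cell cycle genes.
CLSPN: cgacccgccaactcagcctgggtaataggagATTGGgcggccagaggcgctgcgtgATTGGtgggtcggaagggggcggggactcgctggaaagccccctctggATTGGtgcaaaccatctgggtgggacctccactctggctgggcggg
UBE2T: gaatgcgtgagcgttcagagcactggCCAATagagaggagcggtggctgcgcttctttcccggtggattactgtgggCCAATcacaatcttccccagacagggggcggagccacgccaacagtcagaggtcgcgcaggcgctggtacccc
Claspin's promoter held 3 CCAAT boxes in this window and that of UBE2T held 2. At least 2 were found before 9 of the 37 members with a RefSeq promoter sequence (24.3%) and before 8.06% of the 13104 promoters of genes in the table. At least 1 was found before 40.5% and 26.9%, and in the longer window of 300 bases in 45.9% of members and 36.3% of promoters in the table. In the longer window the share was 37.4% among promoters of genes with at least the median read count. The CCAAT box was chosen after the values were seen, and both genes shown count among the 9. The 9 with at least 2 were CLSPN, UBE2T, FANCF, MRE11, H2AFX, XRCC3, BLM, BRIP1 and CHEK2, whose deposited log2 ratios ran from -0.51 to 0.12. XRCC2, ATR, BRCA1, RAD51C and EME1, the other members with intervals wholly below 0, had no CCAAT box in the longer window. In that window the 17 members with a box had a median log2 ratio of -0.17, and the 20 without one -0.18. This difference was not tested. A match of letters is a description and not a binding site.

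Many S-phase genes carry a binding word of E2F, the transcription factor that RB restrains. The words searched were TTTCGCGC and TTTGGCGC and also TTTCCCGC or TTTGCCGC, on both strands, from 250 bases before to 50 after the RefSeq start. Of the 8 words found in members, 0 overlapped a match to another motif searched. The words were chosen after the values were seen. At least 1 word was found in 7 of 37 members (18.9%), in 4.92% of promoters of genes in the table, and in 5.79% of those with at least the median read count. The windows of 30 bases around each word are printed on the gene's strand in order of the deposited log2 ratio, with the word or its complement in capitals.
CLSPN: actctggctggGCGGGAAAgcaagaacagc
XRCC2: tggcgttggtgGCGGGAAAgttgagtctct
EXO1: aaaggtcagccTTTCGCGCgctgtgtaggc
FANCA: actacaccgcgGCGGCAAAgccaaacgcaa
FANCD2: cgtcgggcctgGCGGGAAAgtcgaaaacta
TOPBP1: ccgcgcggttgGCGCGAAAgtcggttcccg
FANCC: ccggggcttccGCGCGAAAccgggaacact
FANCC: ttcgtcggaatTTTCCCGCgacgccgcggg
In GRCh38.p14 these lie at chr1:35769965-35769994 (minus strand), chr7:152676102-152676131 (minus), chr1:241848197-241848226 (plus), chr16:89816801-89816830 (minus), chr3:10026424-10026453 (plus), chr3:133661930-133661959 (minus), and chr9:95317863-95317892 and chr9:95317737-95317766 (minus). In CLSPN, FANCD2 and TOPBP1 the word spans the start itself, from 5, 2 and 7 bases before it. The deposited log2 ratios of the 7 ran from -0.51 (CLSPN) and -0.40 (XRCC2) through -0.26 (EXO1), -0.23 (FANCA), -0.20 (FANCD2) and -0.03 (TOPBP1) to 0.08 (FANCC), with a median of -0.23 (authors' deposited table). The 30 members without a word had a median of -0.16, and 26 of them were below 0. The difference between these medians was not tested, and TOPBP1 and FANCC carry words with log2 ratios near 0. Matches to CHR elements (TTTGAA or TTCGAA) were found in 13.5% of members and 12.1% of promoters in the table, and the ETS word CCGGAAG in 29.7% and 16.5%. Among promoters of genes with at least the median read count the ETS share was 22.1%, and that of CHR elements 10.3%. Members with and without a CHR match had median log2 ratios of -0.10 and -0.17. For the ETS word these medians were -0.171 and -0.169, so carriers of these 2 motifs were not clearly lower.

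The BRCA1 axis prepares resected ends for strand exchange. BRCA1 and BARD1 form the ubiquitin ligase that starts the process, PALB2 bridges it to BRCA2, and BRIP1 is a helicase that binds BRCA1. All 5 had deposited log2 ratios below 0 and none was called in the authors' deposited table. BRCA1 (chromosome 17, minus strand) averaged 6.70 TPM in sgControl and 5.46 in sgMETTL13 (authors' deposited table). Its deposited log2 ratio was -0.29 with an interval from -0.53 to -0.05 and an adjusted p of 0.23. BARD1, its obligate partner, had means of 3.13 and 2.24 TPM and a log2 ratio of -0.33 (-0.71 to 0.05) in the authors' deposited table. BRCA2 had 2.92 and 2.35 TPM and -0.24 (-0.51 to 0.03), and BRIP1 5.35 and 3.70 TPM and -0.25 (-0.56 to 0.06) by the authors' deposited table. PALB2 had the log2 ratio nearest 0 of the 5, with 13.9 and 13.0 TPM and a log2 ratio of -0.01 (-0.23 to 0.22) (values of the authors' deposited table). PALB2 was also the most abundant of the 5 transcripts by mean TPM, and BARD1 and BRCA2 were among the 6 members under 5 mean TPM in sgControl.

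The strand exchange cofactors work in 2 complexes that share RAD51C. RAD51B, RAD51C, RAD51D and XRCC2 make up one, and RAD51C with XRCC3 the other. XRCC2 had 8.26 mean TPM in sgControl and 5.97 in sgMETTL13, with a deposited log2 ratio of -0.40 (-0.70 to -0.09, adjusted p = 0.15 in the authors' deposited comparison). RAD51C had 23.7 and 17.6 mean TPM and -0.32 (-0.62 to -0.02, adjusted p = 0.33) (authors' deposited table). XRCC3, its partner in the smaller complex, had 19.2 and 18.1 mean TPM and -0.01 (-0.23 to 0.20) by the authors' deposited table. RAD51D (3.79 and 3.26 mean TPM) and RAD51B (2.45 and 2.29) were measured on 67.0 and 34.3 mean reads in sgControl, and their intervals, -0.65 to 0.35 and -0.56 to 0.72, leave room for a change of the size seen in XRCC2 in either direction for RAD51B and downward for RAD51D (values of the authors' deposited table). RAD54L, a motor protein of strand invasion, had 5.97 and 5.03 mean TPM and -0.17 (-0.51 to 0.17) in the authors' deposited table. Within the larger complex RAD51C was thus highest and RAD51B lowest in mean TPM. XRCC3 shares 76.7% of its annotated exon bases with KLC1 on the opposite strand. Whether strand was used in counting is not stated. The averages of XRCC3 (379 and 363 mean reads) show no split reads of the kind seen in CLSPN. This cannot tell whether KLC1 reads were counted whole, and the part of KLC1 reads was not tested.

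Break sensing and end resection start the process. RAD50 and NBN, which with MRE11 form the complex that tethers and trims broken ends, had log2 ratios of -0.01 each in the authors' deposited table. RAD50 averaged 30.4 TPM in sgControl and 28.7 in sgMETTL13, and its interval from -0.14 to 0.12 was the narrowest of all members (authors' deposited table). NBN averaged 31.3 and 30.4 TPM, with an interval from -0.18 to 0.17 by the authors' deposited table. MRE11, the nuclease of the same complex, was lower in level, 7.91 and 6.43 mean TPM, with a log2 ratio of -0.23 (-0.49 to 0.02) in the authors' deposited table. RBBP8 encodes CtIP, which switches the nuclease on, and had 16.1 and 15.1 mean TPM and -0.02 (-0.24 to 0.20) (values of the authors' deposited table). EXO1, which lengthens the resected strand and whose promoter holds an E2F word, had 9.49 and 7.88 mean TPM and -0.26 (-0.54 to 0.02) (authors' deposited table). The RecQ helicases BLM (8.20 and 7.20 mean TPM) and WRN (5.63 and 4.75) had log2 ratios of -0.17 and -0.20, respectively (authors' deposited table). None of the 7 was called.

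Among checkpoint genes CLSPN was the called one of 8. ATR, the kinase that senses single-stranded DNA at stalled forks, averaged 6.78 TPM in sgControl and 5.38 in sgMETTL13 (authors' deposited table), with a log2 ratio of -0.27 (-0.48 to -0.05, adjusted p = 0.19). Its partner ATRIP had 12.4 and 10.6 mean TPM and -0.16 (-0.43 to 0.12), and CHEK1, the kinase ATR activates through claspin, 17.1 and 14.5 mean TPM and -0.18 (-0.42 to 0.07) by the authors' deposited table. TOPBP1, the activator of ATR, had 19.9 and 18.4 mean TPM and -0.03 (-0.20 to 0.13) (values of the authors' deposited table). On the double-strand break side, ATM had 6.49 and 5.98 mean TPM and -0.10 (-0.29 to 0.09) in the authors' deposited table, and its target CHEK2 11.7 and 9.94 mean TPM and -0.16 (-0.49 to 0.17). H2AFX encodes the histone variant H2AX that ATM and ATR phosphorylate around a break. It was the most abundant member, with 398 mean TPM in sgControl and 410 in sgMETTL13, and had a log2 ratio of 0.12 (-0.04 to 0.27) in the authors' deposited table. The 39 other members together summed to 523 mean TPM in sgControl and 458 in sgMETTL13, a ratio of 0.875 on the unscaled TPM. On that scale 37 of the 40 members were lower in sgMETTL13, beside 63.8% of all genes.

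**Figure D2:**
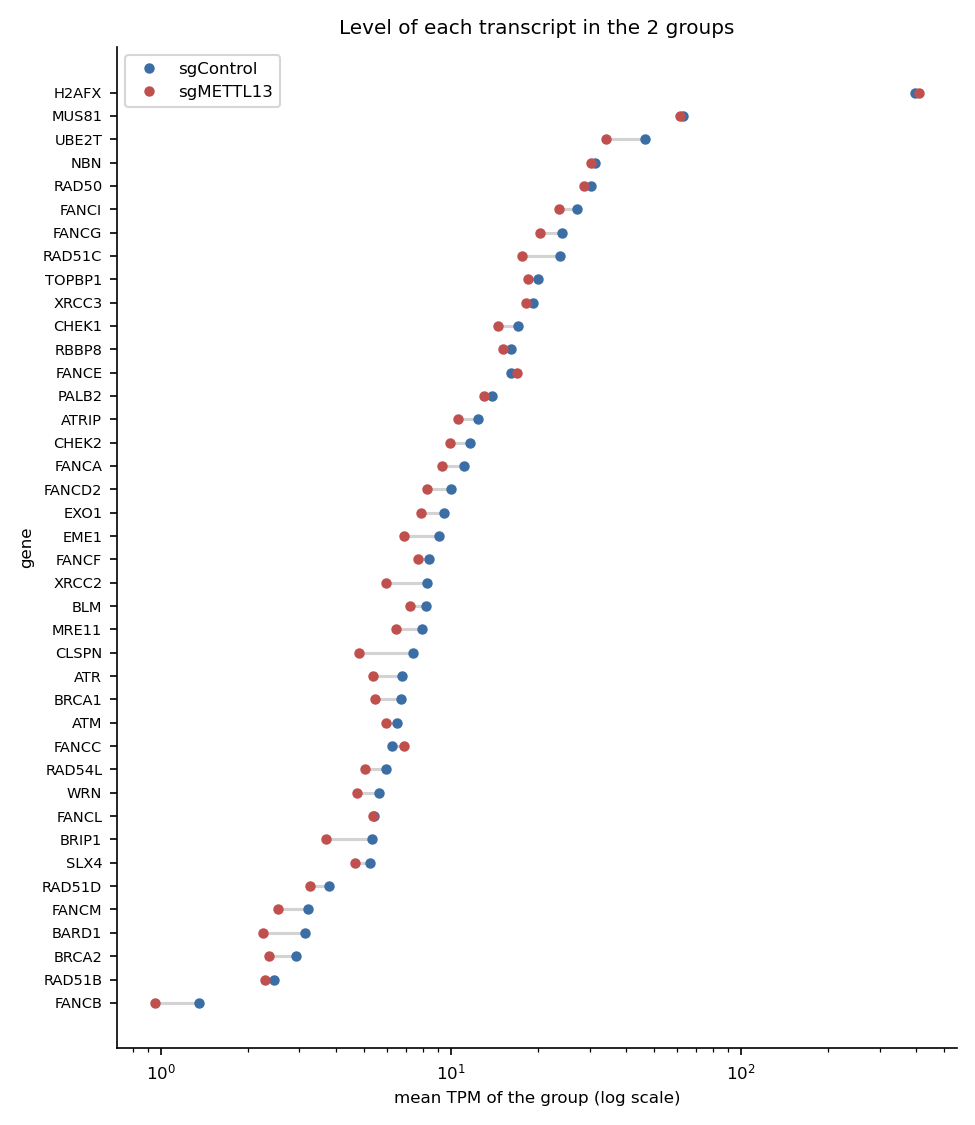
Mean TPM of each gene in sgControl (blue) and sgMETTL13 (red) on a log axis, ordered by the sgControl level. H2AFX stands apart at 398 and 410, FANCB is lowest at 1.35 and 0.953, and the red point lies left of the blue one for 37 of the 40 genes, where unscaled TPM was lower for 63.8% of all genes.

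The Fanconi core complex is the ubiquitin ligase that marks FANCD2 and FANCI at a crosslink, with UBE2T as its conjugating enzyme and FANCL as its catalytic subunit. UBE2T averaged 46.8 TPM in sgControl and 34.3 in sgMETTL13 (authors' deposited table), with a log2 ratio of -0.38 (-0.65 to -0.10, adjusted p = 0.12). UBE2T was the third most abundant member and spans chr1:202331657-202341980 (GRCh38, minus strand). FANCL had 5.43 and 5.39 mean TPM and a log2 ratio of -0.08 (-0.56 to 0.39) (authors' deposited table). Of the scaffold subunits, FANCA had 11.1 and 9.31 mean TPM and -0.23 (-0.46 to 0.0044), and FANCG, which binds FANCA, 24.1 and 20.3 mean TPM and -0.17 (-0.37 to 0.03) in the authors' deposited table. FANCB, on the X chromosome, had the most negative log2 ratio of all members, -0.59, on 39.0 and 25.3 mean reads. Its interval ran from -1.30 to 0.12, so the value was not distinguishable from 0 at that depth. FANCM, the translocase that anchors the complex to DNA, had 3.20 and 2.53 mean TPM and -0.22 (-0.59 to 0.15) by the authors' deposited table. FANCE (16.0 and 16.9 mean TPM), FANCC (6.25 and 6.86) and FANCF (8.40 and 7.70) had log2 ratios of 0.14, 0.08 and -0.05 in the authors' deposited table. None of these 9 was called.

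FANCI and FANCD2 are the substrates of that ligase. FANCI averaged 27.3 TPM in sgControl and 23.6 in sgMETTL13, and FANCD2, with which it forms the clamp on DNA, 10.0 and 8.26 (values of the authors' deposited table). The log2 ratios, -0.14 (-0.31 to 0.03) for FANCI and -0.20 (-0.42 to 0.02) for FANCD2, were not called in the authors' deposited table. Of the nucleases that cut out a crosslink or a joint molecule, EME1 had 9.10 and 6.88 mean TPM and -0.34 (-0.67 to -0.0030, adjusted p = 0.40), while its catalytic partner MUS81 had 63.1 and 61.3 mean TPM and 0.05 (-0.09 to 0.20) in the authors' deposited table. SLX4, the scaffold that holds these nucleases, had 5.27 and 4.67 mean TPM and -0.08 (-0.33 to 0.16) (authors' deposited table). MUS81 overlaps 759 exon bases of CFL1 on the other strand, a far more abundant gene that was called higher (log2 ratio 0.22, adjusted p = 0.0029 in the authors' deposited comparison). The averages of MUS81 show no split reads, but this cannot tell whether CFL1 reads were counted whole. The part of CFL1 reads in its value was not tested. EME1 shares 541 exon bases with LRRC59 on the other strand, at 3597 mean reads in sgControl against 161 for EME1. The part of LRRC59 reads in the value of EME1 was not tested.

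For most members the implied intervals bounded the change between these libraries. They hold only the spread between libraries, which may be technical. Shifts with the GC and length trend, or between TPM and reads, are not in them. The implied interval excluded a fall to 1/1.5 of control, a log2 ratio of -0.58, for 31 of 40, and excluded a rise of the same size for 39. The 9 whose interval reached such a fall included CLSPN, UBE2T, XRCC2, RAD51C and EME1, whose intervals lay below 0. The others were BARD1, RAD51D, FANCB and FANCM, at 25.3 to 123 mean reads. Implied standard errors of the members ran from 0.068 to 0.361 with a median of 0.131, on 32.2 to 4791 mean reads, so a typical change of the size of the median was not detectable for 1 gene.

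Other repair and cell cycle genes were set beside the members. A list of 55 other recombination and crosslink repair genes, all in the table, had a median log2 ratio of -0.08, with 37 below 0 (67.3%). Of these 0 were called lower and 1 higher (1.82%), against 1.08% lower and 2.73% higher of all genes. The called gene was ERCC1, a nuclease subunit used in crosslink and excision repair (330 and 373 mean TPM, 0.26, adjusted p = 2.47e-04 in the authors' deposited comparison). In this list 4 genes had intervals wholly below 0, while those of ERCC1, FAAP20 (0.03 to 0.54) and MAD2L2 (0.02 to 0.43) lay wholly above 0. S-phase and G2/M genes had a median of -0.15, with 44 of 48 below 0, and 7 were called lower (14.6%) and none higher. Among those called were UHRF1 (-0.52), MCM10 (-0.50), MCM6 (-0.33), CENPF (-0.31), RRM1 (-0.27) and MCM2 (-0.27) in the authors' deposited table. End joining genes, which repair breaks without a template, had a median of -0.02 over 21 listed genes. Among them 1 was called lower (4.76%), PARP1 (77.7 and 55.7 mean TPM, -0.41, adjusted p = 4.05e-06 in the authors' deposited comparison). Excision and mismatch repair genes had a median of -0.03 over 40 genes and 1 called lower (2.50%), the uracil glycosylase UNG (67.6 and 52.6 mean TPM, -0.29, adjusted p = 0.0145) by the authors' deposited table. Intervals lay wholly below 0 for 15 of the 48 S-phase and G2/M genes (31.25%) and 4 of the 21 end joining genes (19.0%). The same was true of 4 of the 40 excision and mismatch repair genes (10.0%) and of 7.27% of the 55 other recombination genes. Of the excision and mismatch repair genes, MPG had an interval wholly above 0 (0.04 to 0.39). For the members the share was 17.5%, so end joining and S-phase genes reached at least that share. Differences between lists were not tested.

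**Figure D3:**
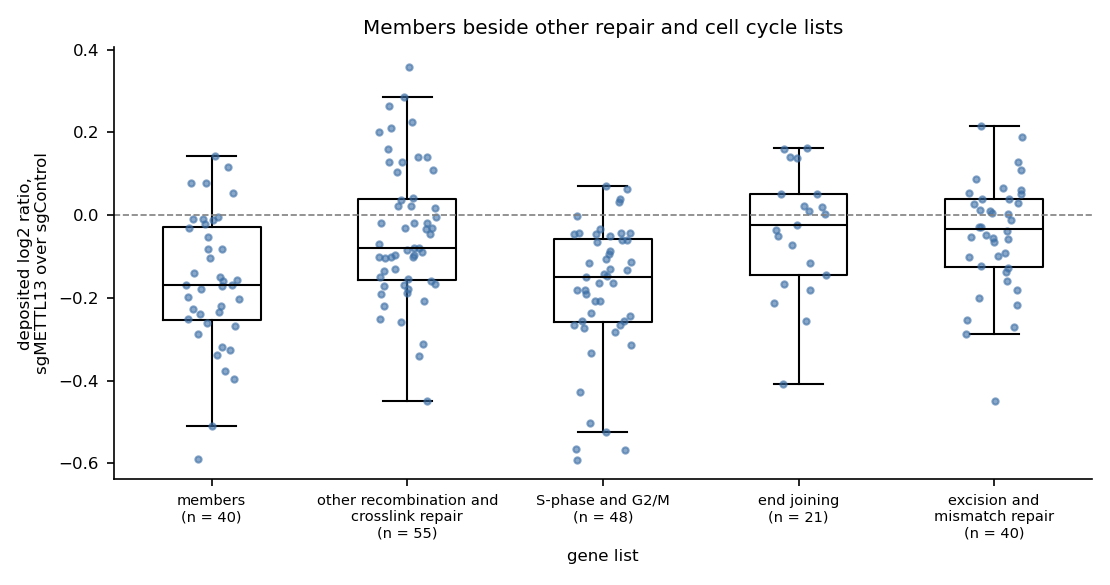
Deposited log2 ratio of sgMETTL13 over sgControl for each gene (points) of the 40 members and 4 other lists, with the median and quartiles (boxes) and whiskers to the last point within 1.5 box lengths; the dashed line is the median of all genes. Medians are -0.17 for the members and -0.15 for S-phase and G2/M genes, against -0.08, -0.02 and -0.03 for the other 3 lists.

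Log2 ratios of the members varied with base composition. The median GC content of the longest annotated transcript was 42.6% over the members and 49.1% over all genes with a match. The 20 members with the lower GC content were all below 0, with a median of -0.24, and of the 20 with the higher GC content 15 were below 0, with a median of -0.11. Across the 40 members Spearman's rho between log2 ratio and GC content was 0.43 (Pearson's r 0.45), a description over genes that share the same libraries. Over the genes with at least the median read count rho was 0.35, of the same sign. The part of base composition in the members' values was not tested beyond the trend removal given next. With the trend in GC content and transcript length removed from all genes, the median of the members was -0.15 and 31 of 40 were below 0, and CLSPN kept its call (-0.47, adjusted p = 0.0158 from the implied standard error). In that setting 7 members had intervals below 0 (17.5%, against 4.73% of all genes), though BRCA1 and ATR no longer did and FANCA and FANCG now did. RAD50, NBN, RBBP8, TOPBP1 and PALB2 turned to small positive values there, and H2AFX to -0.02.

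**Figure D4:**
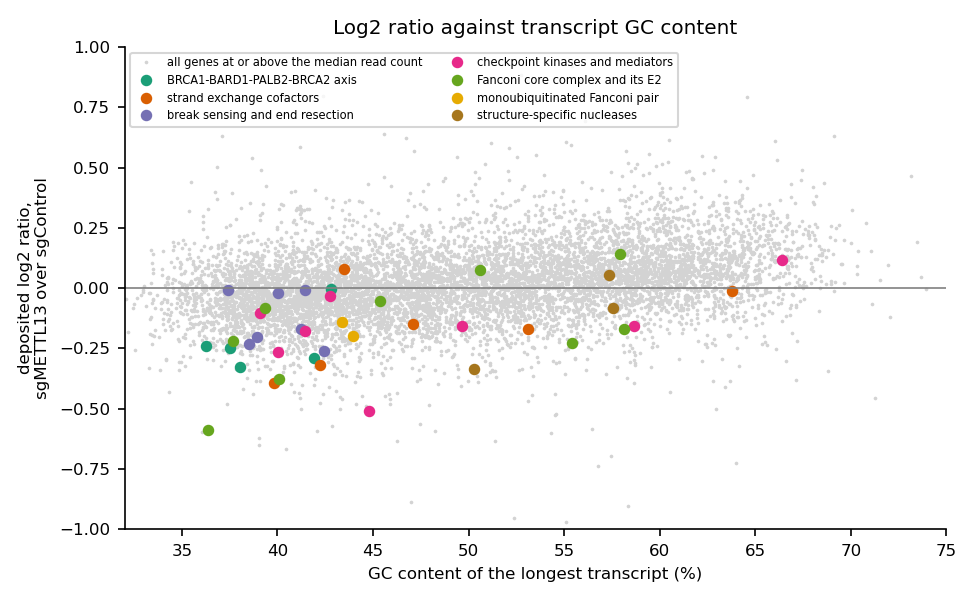
Deposited log2 ratio of sgMETTL13 over sgControl against the GC content of the longest transcript, for the 40 members (coloured by role) over all genes with at least the median read count (grey; those beyond the axis limits are not drawn). The 20 members with the lower GC content all lie below 0, and the grey cloud rises with GC content too.

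The mean TPM and the mean reads of a gene can part where reads are assigned to transcripts of other lengths. BRIP1 stood apart in this respect. Its mean reads had a log2 ratio of -0.30 and its mean TPM one of -0.53, and the reads behind 1 TPM went from 48.4 in sgControl to 56.7 in sgMETTL13, a change of 0.23 on the log2 scale. Among 10876 genes within the members' range of mean reads the central 90% of such changes ran from -0.03 to 0.07, and 0.257% changed by as much as BRIP1. In all, 11 members lay outside that central range, among them BARD1 at 0.11 and RAD51B at 0.12 above it, and FANCB, FANCC and FANCL at -0.12, -0.11 and -0.12 below it. These are group averages without a spread, and which transcripts of these genes were present was not tested.

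**Figure D5:**
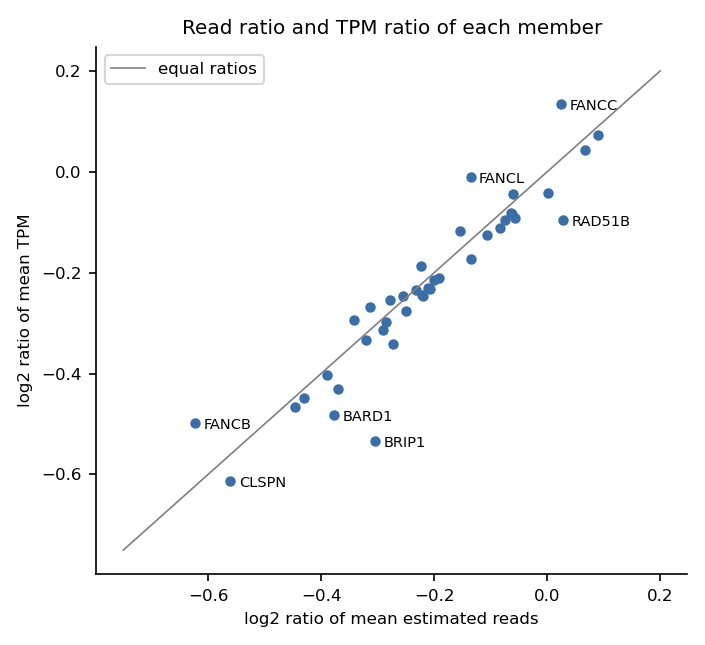
Log2 ratio of mean TPM against log2 ratio of mean estimated reads, sgMETTL13 over sgControl and both unscaled, for each of the 40 members; the line marks equal ratios. BRIP1 lies farthest from the line, at -0.30 in reads and -0.53 in TPM.

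Several members share a start region with a gene on the other strand, a comparison chosen after the values were seen. Of 10 such pairs, with RefSeq starts no more than 1000 bases apart, 9 had a partner with at least 32 mean reads. None of the 9 partners was called, 5 were below 0, and their median log2 ratio was -0.05, against -0.16 for their members. The member was lower than its partner in 7 of the 9 pairs. The exceptions were PALB2 (-0.01) with DCTN5 (-0.08) and XRCC3 (-0.01) with ZFYVE21 (-0.05). Since 35 of the 40 members were below 0, most would also be lower than a gene at the median of all genes (0.00). The count of pairs therefore cannot speak to shared starts. CHEK2 and HSCB, MRE11 and ANKRD49, and ATM and NPAT also share exon bases. EME1 (-0.34) and the mitochondrial ribosomal protein gene MRPL27 (-0.05, interval from -0.26 to 0.17) start 45 bases apart. BRCA1 (-0.29) and NBR1 (0.10, -0.05 to 0.24) start 82 bases apart. MRE11 (-0.23) and ANKRD49 (0.09, -0.22 to 0.39) start 140 bases apart. ATM and NPAT, a histone gene activator, had log2 ratios of -0.10 and -0.09, respectively (authors' deposited table). The intervals of members and partners overlap in these pairs, those of BRCA1 and NBR1 only between -0.049 and -0.046. Overlap does not show that a member and its partner changed alike, and the differences were not tested.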

How the data were processed

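RNA was extracted with TRIzol and libraries were built by a sequencing company, per the labels' protocols. RSEM 1.2.12, DESeq2, Bowtie2 2.2.5 and HISAT2 2.0.4 are named in the submitters' processing notes, with the builds hg38 and GRCh38.p12, but not their roles. The test behind the p-value is not stated. Per the file headers the deposited table gives each group's average TPM, FPKM (not used) and read count, and a log2 ratio with a p-value and an adjusted q-value. The read counts deposited by the authors are estimated counts (RSEM-like fractions) averaged over 3 libraries. The deposited log2 ratio exceeds the log2 ratio of mean reads by 0.05 in abundant genes.

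Because the table used here holds averages, the planned count model was replaced by the authors' comparison, with adjusted p under 0.05 as the call. Implied standard errors are the log2 ratio divided by the normal quantile of its p. Members and gene lists were chosen with earlier results of these data known, and the promoter words after the values were seen. By the naming rule every member could be named and, of other lists, the called genes or the 3 with the smallest p, though not every such gene is reported here. CFL1, KLC1, LRRC59, FAAP20, MAD2L2, CD68, COL1A1, PECAM1 and the genes with shared start regions were named after their values were seen. Coordinates, GC content and length come from GENCODE 29 (matched for 40 of 40 members and 97.6% of genes), and promoters from RefSeq (GRCh38.p14, 37 of 40). Python 3.11.15, numpy 2.4.6, pandas 2.3.3, scipy 1.17.1 and patsy 1.0.2 were used. Alternatives were other thresholds and adjustments, a read count filter, centring, trend removal (splines, 4 degrees of freedom) and ratios of mean TPM or reads. Trend removal was tried on simulated data with a linear GC trend and no length trend. Only genes with at least the median read count were simulated, so that check does not cover the fit used here.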

Additional observations from a re-analysis of the deposited data

How the results depend on the processing

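No paired analysis was possible because the values used here are averages over each group. For the same reason no replicate could be left out. The call of CLSPN held at an adjusted p under 0.01 and under 0.1, with recomputed adjustment, with the read count filter, centred, and with the GC and length trend removed. Under Bonferroni 0 members were called lower. Among the 20 members that share no reads or exons with other genes, an alternative chosen after seeing the data, 0 were called, since CLSPN is not among them, 16 were below 0 and the median was -0.12. The members' median ran from -0.23 (TPM with a pseudocount of 0.1) to that value over all settings. On unscaled TPM with that pseudocount the median of all genes was -0.07, and relative to it the members' median keeps its sign. End joining genes called lower were 2 at an adjusted p under 0.1 and 2 with the read count filter. Excision and mismatch repair genes called lower were 0 at 0.01 and 0 under Bonferroni, and S-phase and G2/M genes called lower were 1 under Bonferroni. Sign changed, none of them in a called gene, with the trend removed for PALB2 (0.033), RAD50 (0.057), NBN (0.048), RBBP8 (0.016), TOPBP1 (0.022) and H2AFX (-0.021). On TPM with pseudocounts of 0.1 and 1 it changed for RAD51B (-0.092 and -0.067) and MUS81 (-0.042 and -0.042). The cause was not tested. Depth limits most the members with few reads, FANCB and RAD51B, which had the largest implied standard errors (0.361 and 0.326).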
